A study of Caenorhabditis elegans with 3 samples.

Results

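Cys-loop ligand-gated ion channels of Caenorhabditis elegans, a free-living nematode, were followed in the RNA of late young adult hermaphrodites. The genes were chosen by name: numbered acr and lgc genes together with unc-29, unc-38, eat-2, deg-3, des-2 and exp-1. The rule itself uses no expression values, but it and the gene lists set beside it were chosen with earlier results of these data known. It gave 66 genes, all with a value on every array, out of 19264 features (genes, or probes without a name) that had 3 values. RefSeq lists 85 genes under the same rule, and the other 19, among them unc-63, mod-1, lgc-35 and lgc-46, were not analysed here.

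The series holds 1 group of 3 samples, each hybridised on its own 2-channel array. Channel 1 of every array carried the same kind of RNA, described as a wild-type mixed reference, and channel 2 carried adult hermaphrodite RNA from preparation 1, 2 or 3. No genotype, age in hours or dye is given for the adults, and the stages mixed in the reference are not given. Nothing says that the preparations came from separate cultures. The p-values therefore set each mean only against the spread between these samples, and that spread may be technical. Adult RNA was in channel 2 throughout, so a gene's bias between channels cannot be told apart from a difference between adult and reference. Each sample title ends in what reads as a date of its own, and what it would date is not stated. Preparation, array and any such date cannot be told apart. The deposited values are log2 ratios whose direction is not stated; they were read as likely adult over reference because the adult RNA is listed second, and with the other direction every "higher" would read "lower".

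Cys-loop receptors are rings of subunits around a pore that opens when a transmitter binds. Acetylcholine receptors of this kind excite muscle and neurons, and relatives gated by GABA, acetylcholine, glutamate or monoamines either excite or inhibit. Nematodes carry an unusually large set of these subunits, and several are targets of worming drugs such as levamisole. The subunits are made mainly in neurons and muscle, so in RNA from whole animals they compete with the RNA of every other tissue. The ratios therefore compare shares of RNA, and fewer cells of a type cannot be told apart from less RNA per cell.

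More channel genes were lower in the adult RNA than higher. Of the 66 genes, 22 were lower and 3 were higher by limma, which tests each gene's mean log2 ratio against 0 (Benjamini-Hochberg adjusted p under 0.05 over all 19264). The 22 lower genes made up 33.3% of the members, against 18.8% of all features tested; without array 3 the shares were 13.6% and 13.9%, so the larger share of lower members was not seen on arrays 1 and 2 alone. The 3 higher genes made up 4.55%, against 19.6%. Members passed the test in either direction about as often as other features, at 37.9% against 38.4%. The members' median log2 ratio was −0.27 ± 0.13 (SD of the 3 array medians), against 0.04 ± 0.03 over all features. Without array 3 the members' median was also −0.27, although fewer of them passed.

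The differences were small. Only 5 members were lower and 1 was higher by at least 2-fold, or 7.58% and 1.52%, against 8.79% and 8.34% of all features. A mean below 0 was found for 54 members, 81.8%, against 47.1% of all features. Values below 0 on all 3 arrays were found for 33 members, against 30.1% of all features, and values above 0 on all 3 for 5 members, against 33.7%. The same sign on every array was thus seen in 57.6% of members and 63.8% of all features. The lowest member, lgc-22, lay at −1.45 and the highest, lgc-12, at 1.15.

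**Figure D1:**
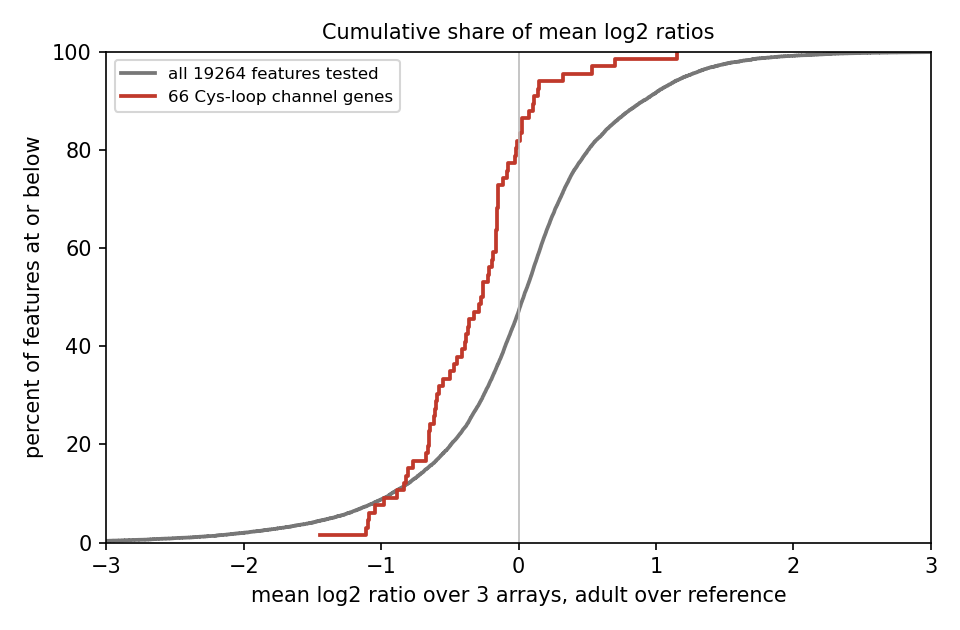
Cumulative share, in percent, of mean log2 ratios (adult over reference, 3 arrays) for the 66 channel genes in red and all 19264 features in grey; the axis ends at a log2 ratio of 3 on either side. The red curve lies to the left of the grey one around 0, where 81.8% of channel genes and 47.1% of all features lie below 0, and it has few values beyond 1 on either side.

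Array 1 stood apart from the other two within the family, as it did over all features. Pearson's r across the 66 genes was 0.79 between arrays 2 and 3, but 0.51 and 0.53 between array 1 and each of these; the rank correlations were 0.76, 0.37 and 0.46. These are descriptions across genes that share a reference RNA, and over all features the same pairs gave r of 0.90, 0.76 and 0.77. The array medians of the members were −0.21, −0.32 and −0.46. Without array 1 the members' median was −0.41, with 27 members lower (40.9%, against 21.7% of all features) and 3 higher (4.55%, against 22.2%). Without array 2 there were 16 lower (24.2%, against 15.2%) and 1 higher (1.52%, against 15.8%). Without array 3 the counts were 9 lower (13.6%, against 13.9%) and 2 higher (3.03%, against 13.9%). The members' medians were −0.33 without array 2 and −0.27 without array 3. Calls that each array decides are named with the genes below.

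**Figure D2:**
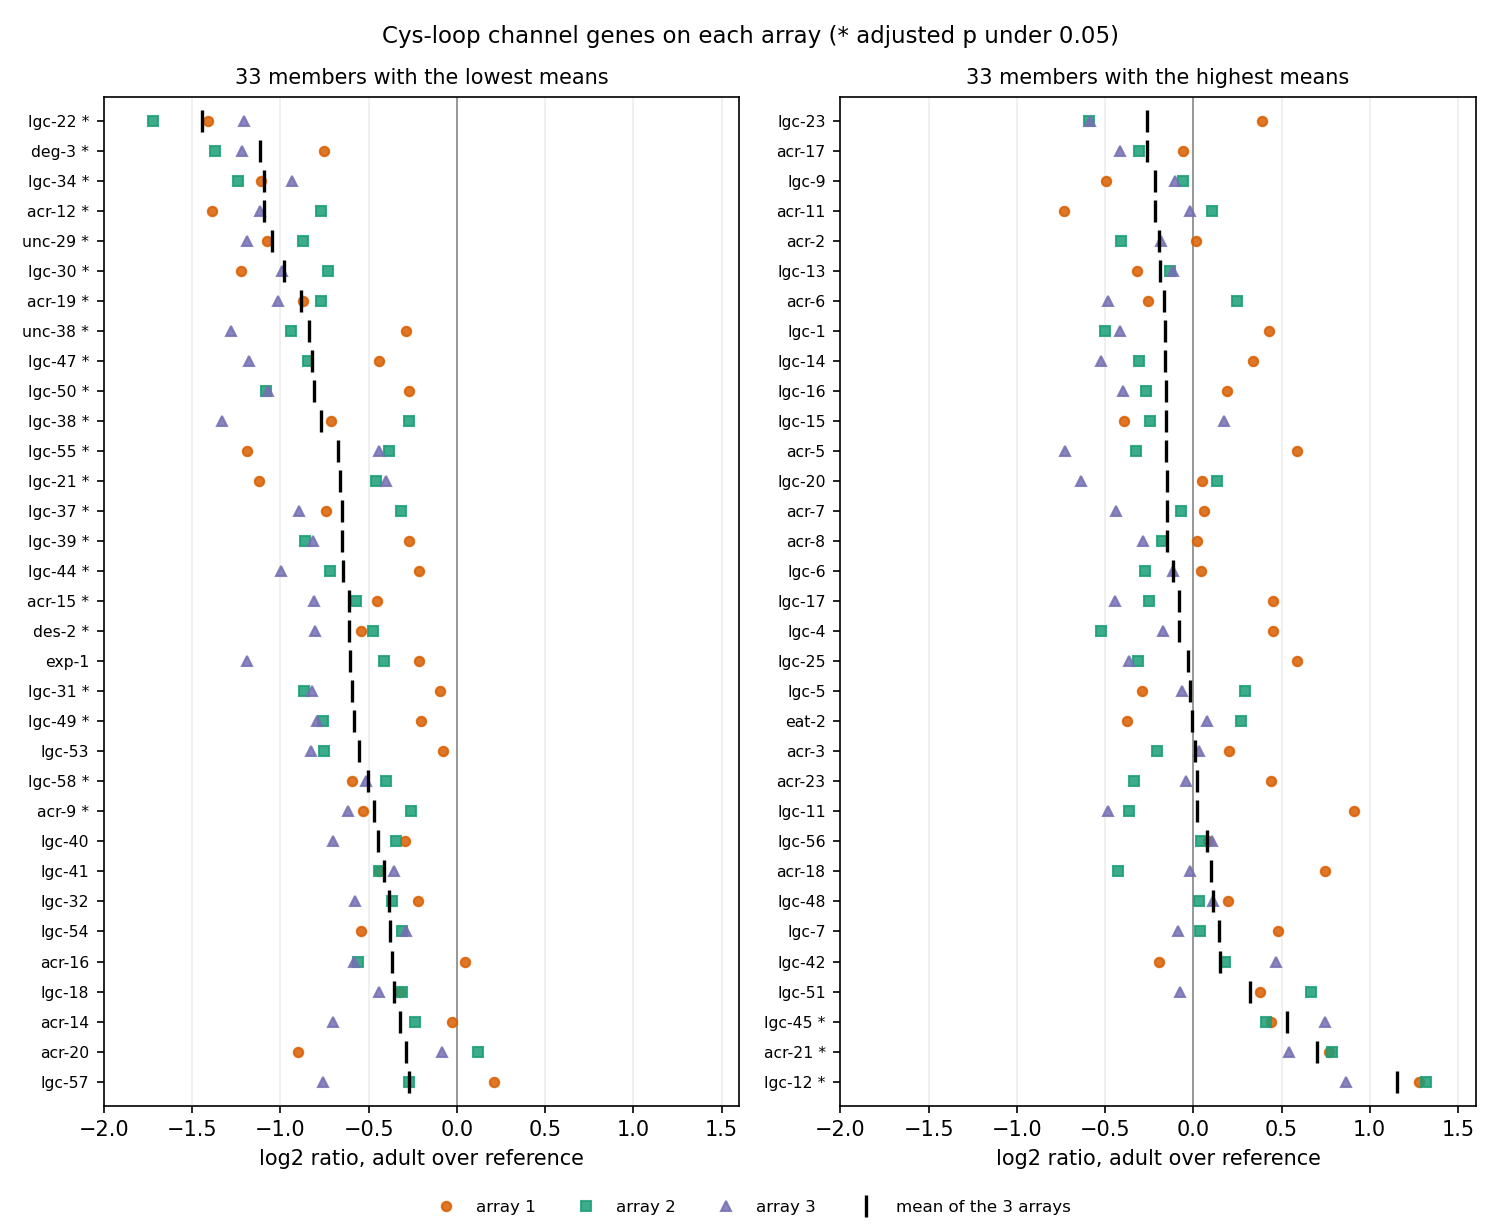
Log2 ratio (adult over reference) of each of the 66 channel genes on array 1 (circle), array 2 (square) and array 3 (triangle), with the mean as a bar and an asterisk for adjusted p under 0.05. The left panel holds the lower-lying 33 genes and the right panel the rest. All 25 genes with an asterisk have their 3 values on one side of 0, from lgc-22 at −1.45 to lgc-12 at 1.15.

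The subunits of the levamisole receptor, the main acetylcholine receptor of body wall muscle, were lower for unc-29, unc-38 and lev-1. unc-29, an essential non-alpha subunit of that receptor, had log2 ratios of −1.08, −0.87 and −1.19. Its mean of −1.05 ± 0.16 (SD, n = 3) corresponds to 2.06-fold lower (limma adjusted p = 0.0013), and it passed without any 1 of the arrays. unc-38, an alpha subunit of the same receptor, had −0.29, −0.94 and −1.28. All 3 values were below 0, with array 1 nearest to it, and the mean was −0.84 ± 0.50 (limma adjusted p = 0.0139; 0.0865 without array 3). lev-1, a partner subunit outside the naming rule, lay at −1.05 ± 0.40 (limma adjusted p = 0.0032). lev-8, the remaining partner measured, lay at −0.17 ± 0.04 and did not pass.

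The subunit acr-8, which contributes to levamisole receptors in the parasite Haemonchus contortus, did not pass and lay at −0.15 ± 0.16, with array values of 0.02, −0.18 and −0.29. The other receptor of body wall muscle, opened by nicotine and not by levamisole, is built from acr-16. Its log2 ratios were 0.05, −0.56 and −0.58. Array 1 stood near 0 while the others were clearly below, and the mean of −0.37 ± 0.36 did not pass (limma adjusted p = 0.154). Without array 1 it passed (limma adjusted p = 0.0183; 0.0159 to 0.531 over the alternatives). acr-6, of the same sequence class as unc-38, lay at −0.16 ± 0.37 and its arrays fell on both sides of 0.

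In cholinergic motor neurons a receptor is assembled from acr-2, acr-3 and acr-12 together with unc-38 and unc-63. Only acr-12 of the 3 acr genes passed, with −1.39, −0.77 and −1.12 on the arrays. Its mean was −1.09 ± 0.31, or 2.13-fold lower (limma adjusted p = 0.0018), and it passed without each array in turn. acr-2, a non-alpha subunit whose gain-of-function mutation causes convulsions, had 0.02, −0.41 and −0.18. acr-3, which follows acr-2 directly in the RefSeq gene order, had 0.20, −0.21 and 0.03. Their means were −0.19 ± 0.21 and 0.01 ± 0.21, with 95% confidence intervals of −0.57 to 0.18 and −0.36 to 0.38. The interval of acr-12, −1.50 to −0.69, did not overlap either of these. The difference between the genes was not tested.

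The ACR-16 class had members on both sides. Of its 9 measured genes, 3 were lower and 1 was higher, beside 18.8% and 19.6% of all features. The class median was −0.32 ± 0.17. acr-19 had −0.87, −0.77 and −1.01, a close set with a mean of −0.88 ± 0.12 (limma adjusted p = 0.0027) that passed without each array. acr-15, the direct neighbour of acr-16 in RefSeq, had −0.45, −0.57 and −0.81 and a mean of −0.61 ± 0.18. Its call (limma adjusted p = 0.0167) was lost without array 2 (0.0626) and without array 3 (0.152). acr-9 was the call nearest to the threshold, at −0.47 ± 0.19 with limma adjusted p = 0.0489, and it was lost without any of the arrays (0.0667, 0.0953 and 0.290). Passing in the other direction, acr-21 had 0.77, 0.79 and 0.54. It was 1.62-fold higher, at 0.70 ± 0.14 (limma adjusted p = 0.0083), and narrowly lost the call without array 2 (0.0513).

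The subunit gene eat-2 sets the fast rhythm of pharyngeal pumping through a receptor on pharyngeal muscle. Its log2 ratios of −0.37, 0.27 and 0.08 lay on both sides of 0. The mean was −0.01 ± 0.33, with a 95% confidence interval of −0.42 to 0.40, which holds no 2-fold difference in either direction. The remaining genes of the class, acr-7, acr-11 and acr-14, lay between −0.32 and −0.15 and did not pass.

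The DEG-3 class is found in nematodes, and deg-3 and des-2 together form a receptor that responds to choline. Both genes, direct neighbours in RefSeq, were lower. deg-3, in which a gain-of-function allele kills touch receptor neurons, had −0.75, −1.37 and −1.22. Its mean was −1.11 ± 0.32, or 2.16-fold lower (limma adjusted p = 0.0017), and it passed without each array in turn. des-2 was represented by 2 probes whose average gave −0.55, −0.48 and −0.80, with a mean of −0.61 ± 0.17 (limma adjusted p = 0.0168; 0.154 without array 3). One des-2 probe had −1.0, −0.37 and −0.91 and the other −0.09, −0.59 and −0.70, so they differed most on array 1 and both lay below 0 on every array.

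The other 5 measured genes of this class did not pass. Their means ran from −0.29 for acr-20 to 0.10 for acr-18. Among them, acr-23, a betaine receptor and the target of the drug monepantel, lay at 0.02 ± 0.39 with 0.44, −0.34 and −0.04 on the arrays. acr-5, the other gene with 2 probes, gave 0.11, −0.18 and −0.92 with the first and 1.07, −0.47 and −0.54 with the second. Both acr-5 probes ran from above 0 on array 1 to below 0 on arrays 2 and 3. acr-18, acr-20, acr-23 and acr-5 were named after their values were seen.

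**Figure D3:**
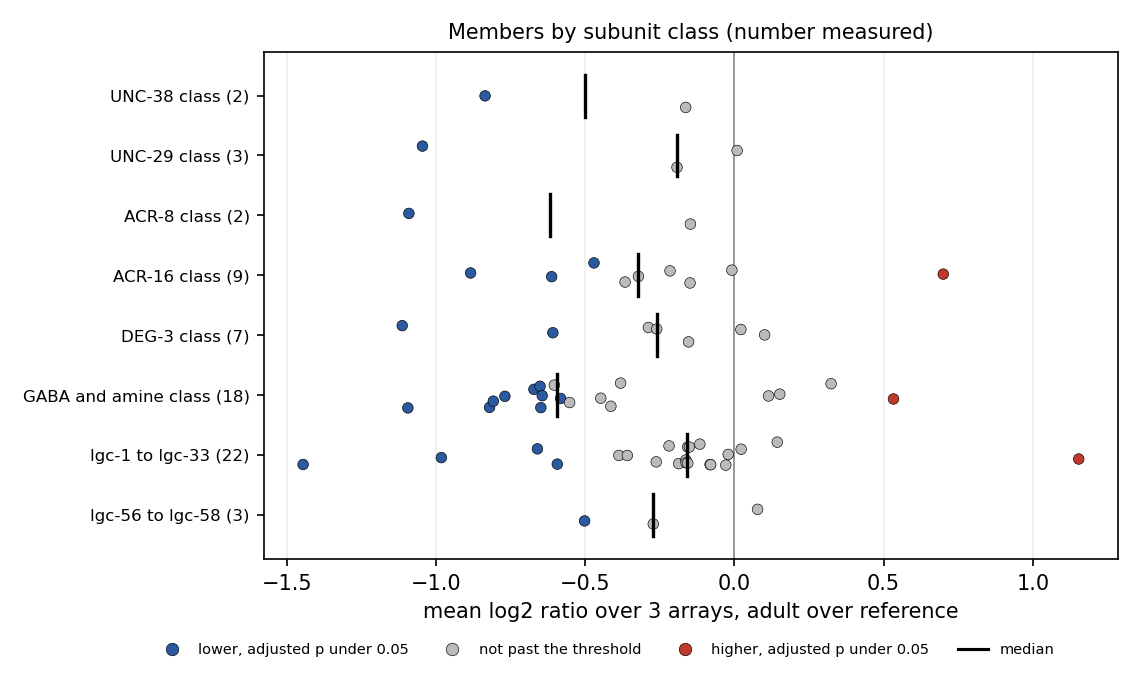
Mean log2 ratio (adult over reference, 3 arrays) of each channel gene by sequence class, with the number measured in brackets; blue and red mark adjusted p under 0.05, and bars are class medians. Blue points occur in every class, and the 3 red points are acr-21 in the ACR-16 class, lgc-45 in the GABA and amine class and lgc-12 among lgc-1 to lgc-33.

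Channels related to GABA receptors, some of them gated by GABA, acetylcholine or monoamines, formed the GABA and amine class. Its median was the lowest among the classes with over 3 measured genes. Of 18 measured genes, 9 were lower and 1 was higher, beside 18.8% and 19.6% of all features. The median was −0.59 ± 0.28, with −0.27, −0.40 and −0.80 on the arrays. On array 1 the ACR-16 class lay lower, at −0.37. Without array 3, only lgc-34 and lgc-55 of the lower genes in the GABA and amine class kept the call. In that setting 13.9% of all features were lower. lgc-34 had −1.11, −1.24 and −0.93, all within a narrow range, and a mean of −1.09 ± 0.16, or 2.14-fold lower (limma adjusted p = 0.0011). It passed without each array, and no other gene of the class that was lower did so. The other 8 lower genes are given next with the array that decided each call.

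Serotonin opens the cation channel lgc-50, which had −0.27, −1.08 and −1.07 and a mean of −0.81 ± 0.46 (limma adjusted p = 0.0136; 0.0588 without array 3). Tyramine opens the anion channel lgc-55, which acts in the escape response. It showed the opposite order, with −1.19 on array 1 and −0.38 and −0.44 on the others. Its mean was −0.67 ± 0.45 (limma adjusted p = 0.0279; 0.0530 without array 1). Dopamine opens lgc-53, which had −0.08, −0.75 and −0.83. It lay just outside the threshold at −0.55 ± 0.41 (limma adjusted p = 0.0520), and passed without array 1 (0.0063) and with each array centred on its median (0.0411); the alternatives ranged from 0.00295 to 0.275.

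Acetylcholine and monoamines can both open lgc-39, which lay at −0.65 ± 0.33 and lost its call without array 2 (limma adjusted p = 0.121) and without array 3 (0.116). The serotonin- and choline-sensitive channel lgc-40 had −0.29, −0.35 and −0.70. Its mean of −0.45 ± 0.22 did not pass (limma adjusted p = 0.0627; 0.0489 with centred arrays; 0.0164 to 0.408 over the alternatives). lgc-41 stood at almost the same value on all arrays, −0.44, −0.44 and −0.36, and a mean of −0.41 ± 0.05 that did not pass (limma adjusted p = 0.0629). It passed with centred arrays (0.0494) and with array weights (0.0294), and the alternatives ranged up to 0.284. It was named after its values were seen.

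The cation channel exp-1, opened by GABA and needed for the enteric muscle contraction of defecation, had −0.21, −0.41 and −1.19. Array 3 lay far below the other arrays, and the mean of −0.60 ± 0.52 just missed the threshold (limma adjusted p = 0.0537; 0.0456 with centred arrays). Over the alternatives its adjusted p ranged from 0.00824 to 0.425, the highest without array 3. lgc-37 and lgc-38, related in sequence to GABA receptor subunits, lay at −0.65 ± 0.30 and −0.77 ± 0.53. Both lost the call without array 3 (limma adjusted p = 0.142 and 0.180), and lgc-38 lost it also without array 1 (0.0563).

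Of the lower genes that remain in the class, lgc-47 lay at −0.82 ± 0.37 and lost its call without array 3 (limma adjusted p = 0.0681). lgc-44 lay at −0.64 ± 0.40 and lost it without array 2 (0.0775) and without array 3 (0.204), and lgc-49 at −0.58 ± 0.33, likewise (0.166 and 0.195). The gene that was higher was lgc-45, with 0.44, 0.41 and 0.75 and a mean of 0.53 ± 0.19 (limma adjusted p = 0.0303). Its call was lost without array 2 (0.0832) and without array 3 (0.248). lgc-42, lgc-48, lgc-51 and lgc-54 did not pass, with means from −0.38 to 0.32.

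The genes numbered lgc-1 to lgc-33 are mostly channels with no ligand that could be stated here. They held both ends of the family. Of 22 measured, 4 were lower and 1 was higher, beside 18.8% and 19.6% of all features. The share of lower genes was thus close to that of all features. Their median was −0.16 ± 0.24. lgc-22 had −1.41, −1.72 and −1.20 and was lowest of all members, 2.72-fold lower at −1.45 ± 0.26 (limma adjusted p = 0.000425). lgc-12 had 1.28, 1.32 and 0.87 and was 2.23-fold higher, at 1.15 ± 0.25 (limma adjusted p = 0.0011). The array values of these genes lay clear of 0 throughout, and both passed without each array in turn.

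lgc-30 had −1.22, −0.73 and −0.99 and a mean of −0.98 ± 0.25 (limma adjusted p = 0.0023). lgc-21 had −1.12, −0.46 and −0.40 and a mean of −0.66 ± 0.40 (limma adjusted p = 0.0253). Each passed without any 1 array, although lgc-21 only just did without array 1 (0.0475). lgc-31 rested on arrays 2 and 3, with −0.10, −0.87 and −0.82. Its mean was −0.59 ± 0.43 (limma adjusted p = 0.0429), and the call was lost without array 2 (0.209) and without array 3 (0.200).

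Several genes of this group lie side by side. In RefSeq, lgc-13 to lgc-17 follow each other directly and lgc-18 comes after 1 further protein-coding gene. None of them passed, and their means ran from −0.36 to −0.08. The neighbours did not share their array pattern: on array 1, lgc-14, lgc-16 and lgc-17 lay at 0.34, 0.19 and 0.45, and lgc-13, lgc-15 and lgc-18 at −0.32, −0.39 and −0.32. lgc-5 and lgc-6, another pair of direct neighbours, lay at −0.02 ± 0.30 and −0.12 ± 0.16. Probe sequences were not used here, so signal shared between probes of related genes was not tested. Outside all classes, lgc-58 lay at −0.50 ± 0.10 with −0.60, −0.40 and −0.51 and was lower (limma adjusted p = 0.0325; 0.112 without array 2 and 0.168 without array 3). lgc-56 and lgc-57 lay at 0.08 ± 0.03 and −0.27 ± 0.49.

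The 41 members that did not pass are not shown to be equal between adult and reference. Their means ran from −0.60 to 0.32, with 32 below 0 and 9 above, and 7 had an unadjusted p under 0.05. For 40 of them the 95% confidence interval lay inside a 2-fold difference in both directions. The exception was exp-1, with −1.09 to −0.12.

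Disagreement between array 1 and the others was common in this family. In 17 genes, 25.8% of the members, array 1 lay above 0 and arrays 2 and 3 below it, against 9.71% of all features. On array 1 these genes ran from 0.02 for acr-2 to 0.91 for lgc-11, and none of them passed the test. lgc-11, named after its values were seen, had 0.91, −0.36 and −0.48. Members lay higher on array 1 than on the mean of arrays 2 and 3 by a median of 0.24, against 0.05 over all features. The median SD between arrays was 0.32 for members and 0.27 for all features. Leaving out array 1 brought exp-1 (limma adjusted p = 0.0287), lgc-40 (0.0386), lgc-32 (0.0411), lgc-23 (0.0168), lgc-1 (0.0393) and acr-5 (0.0432) past the threshold in the lower direction, as well as lgc-53 and acr-16 already given. lgc-32, lgc-23 and lgc-1 were named after their values were seen.

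**Figure D4:**
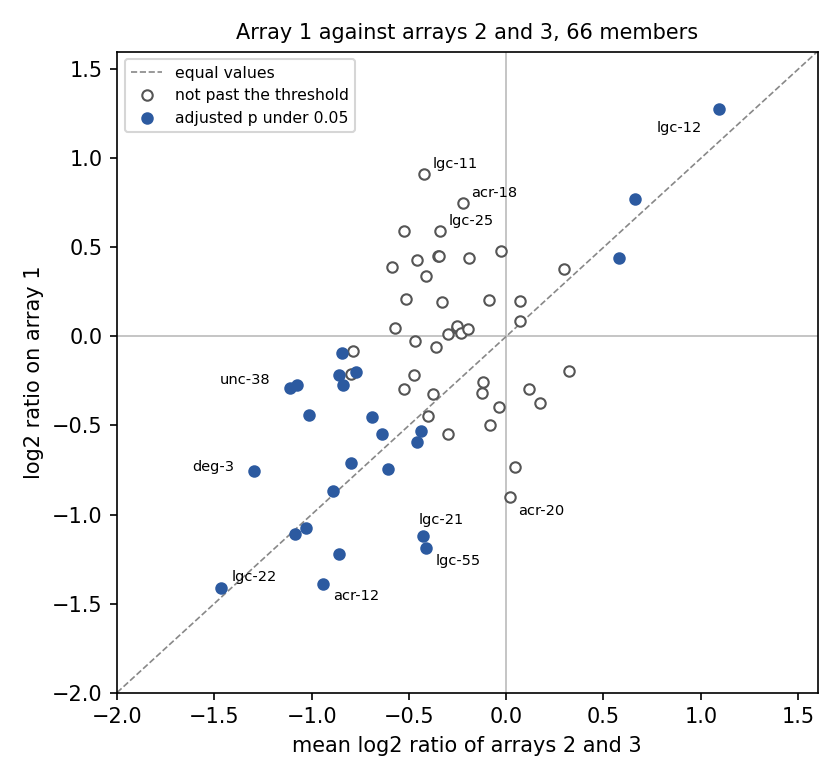
Log2 ratio on array 1 against the mean log2 ratio of arrays 2 and 3 for the 66 channel genes; filled points passed the test in either direction, and the dashed line marks equal values. The open points in the upper left quadrant include the 17 genes above 0 on array 1 and below 0 on the other arrays, led by lgc-11 at 0.91; labels mark genes at the edges of the cloud, chosen after their values were seen.

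Cys-loop channels with other names were lower or did not pass. Of 15 measured, 8 were lower and 0 were higher by limma, beside 18.8% and 19.6% of all features. Their median was −0.66 ± 0.14, and at an unadjusted p under 0.05 the counts of these 15 were the same. glc-1, a glutamate-gated chloride channel and ivermectin target, had −2.42, −1.80 and −2.27 and was 4.48-fold lower at −2.16 ± 0.32 (limma adjusted p = 0.000106), below every member of the family. unc-49, the GABA receptor of the neuromuscular junction, lay at −1.05 ± 0.31 and glc-4 at −1.25 ± 0.23. The acetylcholine-gated chloride channels acc-1 and acc-4 lay at −0.84 ± 0.08 and −1.04 ± 0.56.

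Genes that help build and place acetylcholine receptors split. Of 10 measured, 4 were lower and 3 were higher, beside 18.8% and 19.6% of all features. Their median was −0.23 ± 0.18. ric-3, a chaperone of the endoplasmic reticulum needed for receptor assembly, had −2.10, −1.95 and −1.88 and was 3.93-fold lower at −1.98 ± 0.11 (limma adjusted p = 8.9e-05). molo-1, an accessory protein of the levamisole receptor, lay at −1.06 ± 0.42. madd-4, a secreted organiser of neuromuscular synapses, lay at −1.06 ± 0.26, and rpy-1, related to the vertebrate clustering protein rapsyn, at −1.22 ± 0.36. The genes that were higher act in the early secretory pathway: nra-2 and nra-4, which form an endoplasmic reticulum complex that controls subunit composition, lay at 1.12 ± 0.20 and 0.87 ± 0.25, and the Golgi protein gene unc-50 at 0.80 ± 0.14.

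Of 7 measured genes for acetylcholine itself, 3 were lower and 1 was higher, beside 18.8% and 19.6% of all features. Their median was −0.61 ± 0.07. unc-17, the transporter that loads acetylcholine into vesicles, lay at −0.87 ± 0.20. The acetylcholinesterase genes, whose enzymes break the transmitter down, differed in direction: ace-3 and ace-1 were lower at −0.96 ± 0.20 and −0.61 ± 0.11, and ace-2 was higher at 0.52 ± 0.13 (limma adjusted p = 0.0288). cho-1, for choline uptake, had 0.20, −1.04 and −1.01 and did not pass.

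Markers of whole tissues are given beside these values. Their counts stand against 18.8% lower and 19.6% higher among all features. Of 15 measured pan-neuronal genes, 10 were lower and 0 higher by limma, also at an unadjusted p under 0.05, and their median was −0.69 ± 0.17 (−0.61, −0.93 and −0.69 on the arrays). All 15 germline genes were higher, and their median was 2.26 ± 0.09 (2.17, 2.31 and 2.35 on the arrays). Body wall muscle genes split, with 4 of 13 higher, 2 lower and a median of 0.31 ± 0.41. Among acetylcholine receptor genes of this muscle, unc-29, unc-38 and lev-1 were lower, and lev-8 and acr-16 did not pass. Of these, unc-38 also belongs to the motor neuron receptor above, and its call was lost without array 3 (limma adjusted p = 0.0865). Of 10 pharyngeal genes, not all of them specific to muscle, 3 were lower and 1 was higher, around a median of −0.38 ± 0.20. The lower genes were tnc-2 at −2.59 ± 0.44, pha-4 at −0.84 ± 0.03 and marg-1 at −0.79 ± 0.44. The higher gene was tni-4, at 0.58 ± 0.24. The others, myo-1, myo-2, myo-5, ceh-22, tnt-4 and phat-1, did not pass. The part that the shares of these tissues have in the channel ratios was not tested.

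**Figure D5:**
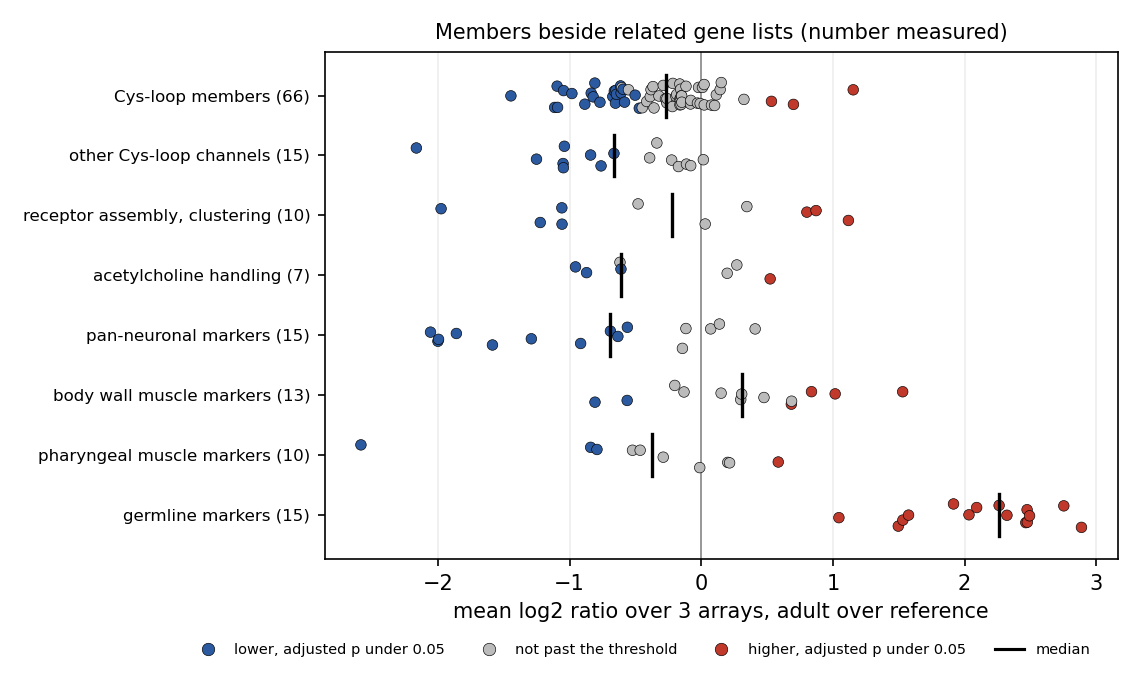
Mean log2 ratio (adult over reference, 3 arrays) of the 66 channel genes and of 7 related lists, with the number measured in brackets; blue and red mark adjusted p under 0.05, and bars are medians. Pan-neuronal markers (median −0.69) and other Cys-loop channels (−0.66) lie below the members (−0.27), and all germline markers lie above 1.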

How the data were processed

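Per the labels, RNA of late young adult hermaphrodites was hybridised against a mixed reference on 3 arrays with 2 channels. The authors deposited 1 log2 ratio per probe and array; the ratios behind 99.98% of these log2 values were whole in steps of 0.001 (tolerance 0.01 steps). Background correction, normalization and build are not given in the sources used here. Array medians were 0.05, 0.01 and 0.02, and ratios were used as deposited. Spot intensities were not used, and the number of arrays limits the precision.

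Symbols came from the platform annotation: 15655 of 20000 probes had 1 symbol, 198 several and 4147 none listed. Probes of a symbol were averaged (64 members had 1 probe and 2 had 2); the remaining probes were kept singly. RefSeq's table (WBcel235) gave the same symbol by gene identifier for all 66 members, and served for names and gene order only.

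The mean ratio of each feature was set against 0 by limma (version 3.58.1, R version 4.3.3; lmFit, eBayes; two-sided; 95% intervals moderated), with Benjamini-Hochberg adjustment over 19264 features, after a check on simulated data. Adult RNA was in channel 2 on every array, and the reference's own spread does not enter. The members and lists were chosen with earlier results of these data known. The rule for named genes took all members past the threshold and a list of well-studied subunits; every other member named was named after its values were seen. Alternatives were scaling, direction, variance model, weights, probe and naming rules, features tested, and leaving out each array. Ranges of adjusted p over the alternatives leave out the turned direction and the test without moderation.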

Additional observations from a re-analysis of the deposited data

How the results depend on the processing

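The main counts were 22 lower and 3 higher members, with a median log2 ratio of −0.27. Other settings were robust variance, the lowest-numbered probe, updated symbols and features on at least 2 arrays. Named features alone, array weights, and centring with or without scaling of the arrays were used as well. Over these settings 21 to 31 members were lower and 3 higher. The matching counts over all features were 3152 to 4582 lower and 3073 to 4833 higher. With the direction turned, 22 members were higher and 3 lower, and the median was 0.27; single members then only change sign and were not written out again. The test without moderation called 0 members and 0 features in either direction (smallest adjusted p = 0.0682). At an unadjusted p under 0.05 it gave 14 lower and 3 higher members, and 6188 features in both directions together. By limma 29 members were lower and 3 higher at that level. Leaving out each array gave 9 to 27 lower and 1 to 3 higher members, a median of −0.41 to −0.27, and 2676 to 4184 lower and 2676 to 4274 higher features. Of the 25 members past the threshold, 9 passed without each array in turn, a count that was not taken over all features. Over 33 named members, 320 values kept their direction and side of the threshold. With robust variance, the lowest-numbered probe or updated symbols, all 33 members did so. Another 52 values fell short of the threshold, 25 of them in the test without moderation, which called 0 features. A further 17 newly passed the threshold. The other 7 changed sign, all close to 0 and past the threshold in no setting: acr-3 went from 0.009 to −0.0189 with centred arrays, −0.0227 with centred and scaled arrays and −0.0574 with array weights, and ranged from −0.088 to 0.116 with 1 array left out, and eat-2 went from −0.0086 to 0.116 with array weights and ranged from −0.148 to 0.174 with 1 array left out; the cause was not tested. No paired analysis was possible because there is 1 group. How far faint spots limit these ratios could not be examined without intensities.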
